A study of Mus musculus with 8 samples.

Results

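The genes of the N6-methyladenosine (m6A) RNA methyltransferase complex were followed in 3T3-L1 preadipocytes after knockdown of Fto. The set held 9 genes, chosen by name: Mettl3, Mettl14, Wtap, 1110037F02Rik (the older symbol of Virma, used below), Zc3h13, Rbm15, Rbm15b, Cbll1 and Mettl16. Each had 1 entry among the 23699 genes listed per library. All 9 had a mean of at least 1 FPKM (fragments mapped to a gene, corrected for its transcript length and for library size) and so were among the 11398 genes tested. Mettl16 is a methyltransferase that acts on its own and is not a subunit of the complex, so it is described apart from the other 8 genes.

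3T3-L1 is a mouse fibroblast line that can be turned into fat cells, and total RNA was sequenced from cells at 2 days past confluence that had not been induced to differentiate. The siFto group received a mix of 3 Stealth siRNAs (chemically modified duplexes) against Fto, and the siCtr group received 3 non-targeted ones. Transfection with Lipofectamine lasted 24 hours at 40 nM, before the cells were confluent, and each group had 4 libraries. No source used here gives the sequences of the duplexes. Nothing says whether the replicates were separate cultures, so the p-values cover only variation among these libraries, some of which may be technical.

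m6A is the most common internal mark of mRNA, and it is written in the nucleus while the RNA is made. Mettl3 carries the catalytic site and uses S-adenosylmethionine as methyl donor, and Mettl14 is its partner, which has lost catalysis and helps to hold the RNA. Wtap anchors this pair to nuclear speckles and to a larger assembly of Virma, Zc3h13, Cbll1 and Rbm15 or Rbm15b, which directs where the mark is placed. Fto removes methyl groups from m6A and from m6Am, the related mark beside the mRNA cap. On m6A, the complex and this eraser act in opposite directions. In 3T3-L1 cells, Fto and the writers have both been studied as regulators of the cell divisions and splicing that accompany adipogenesis.

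Fto mRNA was lower in every siFto library. It averaged 12.1 ± 1.29 FPKM in siFto cells and 55.3 ± 0.647 FPKM in siCtr cells (SD, n = 4 each), 78.1% lower (exact two-sided permutation test p = 0.0286, the smallest that 70 arrangements can give). Depth worked out from the width of the deposited Cufflinks intervals was about 18900000 to 24400000 fragments per library. Of 9 markers of preadipocytes and fibroblasts, 8 were at 1 FPKM or more, the exception being Cd34. Their summed level did not overlap between the groups, at 6475 to 7496 FPKM in siFto and 5894 to 6316 FPKM in siCtr libraries. Within the list the genes went both ways. Col1a1 and Col1a2, the largest parts of the sum, averaged 1897 and 3407 FPKM in siFto, against 1605 and 2932 FPKM in siCtr. Ly6a, Thy1, Dlk1 and Cd34 were also higher in siFto on average. Pdgfra (208 against 240 FPKM) and Pdgfrb (62.9 against 69.3 FPKM) were lower in siFto, and Pparg was level (32.6 against 32.9 FPKM). The summed level of 5 mature adipocyte markers was 3.53 to 5.91 FPKM in siFto and 4.66 to 15.1 FPKM in siCtr libraries. Of 4 macrophage and leukocyte markers, 1 (Cd68) was at 1 FPKM or more and Emr1 was listed at 0 in all 8 libraries, with a sum of 1.82 to 2.50 FPKM in siFto and 1.43 to 1.89 FPKM in siCtr. Of 3 skeletal muscle markers, 1 (Des) was at 1 FPKM or more and Myod1 was listed at 0, with a sum of 1.46 to 2.15 FPKM in siFto and 1.34 to 2.22 FPKM in siCtr. None of 3 endothelial or 3 epithelial markers reached 1 FPKM, and the sums were at most 0.345 FPKM in siFto and 0.265 FPKM in siCtr for the endothelial list and at most 0.0250 FPKM in siFto and 0.0350 FPKM in siCtr for the epithelial list. The part of these levels in the results below was not tested. In bulk RNA, fewer cells of a type and less RNA per cell cannot be told apart. Library siCtr 3 stood furthest from its group, with a median absolute log2 difference from the mean of the other 3 controls of 0.0937, against 0.0510 to 0.0700 for the other controls.

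None of the 8 complex genes was called higher, 1 of them, Rbm15b, was called lower, and so was Mettl16. Rbm15b fell by 10.3% and Mettl16 fell by 9.45%, and both calls were lost under several alternatives, given with the values of each gene. The other 7 genes did not pass the test, limma with p-values adjusted by Benjamini-Hochberg across the 11398 genes and a threshold of 0.05. Here 2 of 9 genes were called lower and 0 of 9 higher, while among all genes tested 12.3% were called lower, 6.97% higher and 19.3% in either direction. At an unadjusted p under 0.05 there were 3 of the 9 genes, Cbll1 being the third, with a higher level in siFto cells. The share of all tested genes at that level was not counted, but it is larger than the 19.3% called after adjustment. Trmt112, described below, was at that level (limma adjusted p = 0.14), so every gene with a lower adjusted p was too. The 3 of 9 are therefore not read as a raised share. Cbll1 just missed the adjusted threshold (limma adjusted p = 0.053) and was called higher in 4 of 16 alternatives. The log2 fold changes ran between -0.15 and 0.18 with a median of 0.01, against a median of -0.02 over all tested genes, and 5 of the 9 were above 0.

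**Figure D1:**
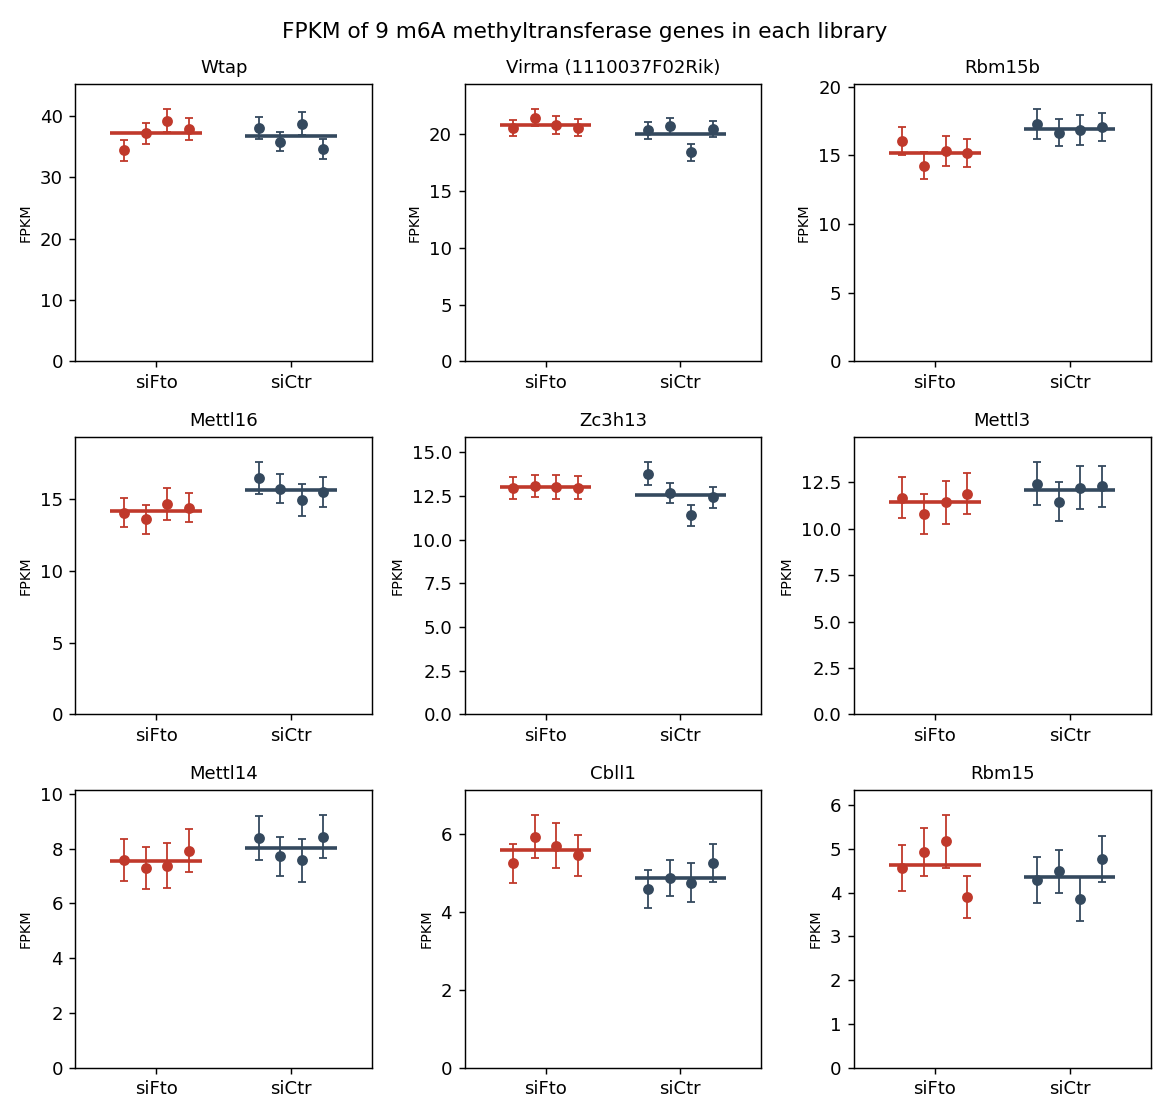
FPKM (linear axis from 0) of each gene in the 4 siFto and 4 siCtr libraries, replicates 1 to 4 left to right within a group; bars are the deposited Cufflinks intervals and horizontal lines the group means. The groups are separate for Rbm15b and Mettl16, where all siFto points lie below all siCtr points, and overlap for the other 7 genes.

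The catalytic pair did not pass the test. Mettl3 had 11.7, 10.8, 11.4 and 11.9 FPKM in siFto libraries 1 to 4, against 12.4, 11.5, 12.2 and 12.3 FPKM in siCtr libraries 1 to 4. Replicate 2 was the lowest in both groups, and the ranges overlapped. Its log2 fold change was -0.08, with a 95% interval of -0.17 to 0.02 (limma adjusted p = 0.26). Mettl14 (mm9 chr3:123071213-123088908) had 7.59, 7.31, 7.38 and 7.93 FPKM in siFto libraries, against 8.39, 7.72, 7.58 and 8.44 FPKM in siCtr libraries. Here siCtr 2 and 3 lay among the siFto values while siCtr 1 and 4 lay above them all. The log2 fold change of Mettl14 was also -0.08, with an interval of -0.20 to 0.03 (limma adjusted p = 0.29). Mettl3 was read from about 382 to 502 fragments per library and Mettl14 from about 335 to 469. The counting error worked out from the interval widths was an SD of 0.557 to 0.559 FPKM for Mettl3 and 0.389 FPKM for Mettl14. The replicate SDs of Mettl3, 0.461 FPKM in siFto and 0.433 FPKM in siCtr, were below that counting error. The locus of Mettl3 (mm9 chr14:52914517-52924799) shares 668 bases with that of Tox4, so reads there cannot be told apart without strand; Tox4 averaged 17.6 FPKM in siFto and 16.5 FPKM in siCtr libraries (log2 fold change 0.10, limma adjusted p = 0.12).

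The 2 partners kept nearly the same proportion to each other in every library. Since FPKM is per length, levels can be set beside each other within a library, as far as the deposited gene models give the right lengths. The ratio of Mettl3 to Mettl14 was 1.54, 1.48, 1.55 and 1.50 in siFto libraries, against 1.48, 1.49, 1.61 and 1.46 in siCtr libraries. Its mean was 1.52 ± 0.0310 in siFto and 1.51 ± 0.0700 in siCtr (SD, n = 4 each). Such a steady ratio was not particular to this pair. The ratio of Virma to Zc3h13 was 1.602 ± 0.027 in siFto and 1.595 ± 0.079 in siCtr. That of Mettl16, which is no subunit, to Mettl3 was 1.238 ± 0.037 in siFto and 1.294 ± 0.066 in siCtr. Among the 36 pairs of the 9 genes, Mettl3 and Mettl14 had the most alike profiles over the 8 libraries. The root-mean-square difference between their centred log2 levels was 0.0419. The next pairs were Virma and Zc3h13 at 0.0456, and Rbm15b and Mettl16 at 0.0461, while Rbm15b and Cbll1 were the least alike at 0.194. By the same measure over all tested genes, those nearest to Mettl3 were Mrpl48 (0.0217) and 5730455O13Rik (0.0225), against a median distance of 0.103. For Mettl14 they were Usp1 (0.0227) and Dnajc2 (0.0250), and for Wtap they were Tmem165 (0.0278) and Stxbp3a (0.0281).

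Wtap, the adaptor of the pair (mm9 chr17:13159665-13185405), was the most abundant of the 9 genes in both groups. It had 34.4, 37.2, 39.3 and 37.9 FPKM in siFto libraries, against 38.1, 35.8, 38.8 and 34.6 FPKM in siCtr libraries. High and low libraries occurred in both groups, and siFto 1 and siCtr 4 were the lowest. The log2 fold change was 0.01 with an interval of -0.10 to 0.12 (limma adjusted p = 0.88), and it changed sign when siFto 3 or siCtr 4 was left out (-0.01 and -0.02). The spread of Wtap between replicates was 2.31 times its counting error in siFto and 2.23 times in siCtr. The ratio of Wtap to Mettl3 was 3.25 ± 0.235 in siFto and 3.05 ± 0.158 in siCtr (SD, n = 4 each), with overlapping ranges.

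**Figure D2:**
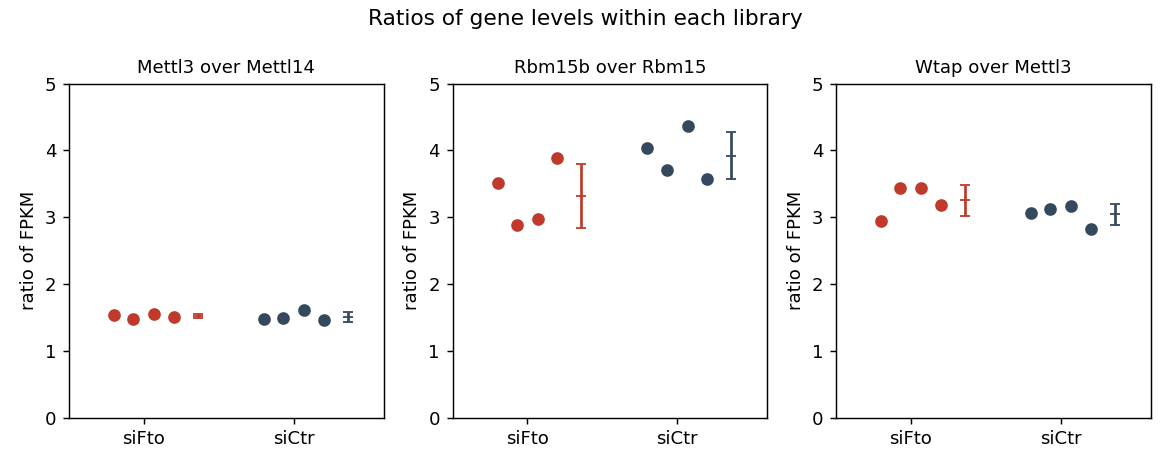
Ratios of FPKM (linear axis from 0) of Mettl3 to Mettl14, Rbm15b to Rbm15 and Wtap to Mettl3 in each library, replicates 1 to 4 left to right, with the mean and SD (n = 4) at the right of each group. The ratio of Mettl3 to Mettl14 stays between 1.46 and 1.61 in all 8 libraries, and the groups overlap for all 3 ratios.

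The scaffold genes Virma and Zc3h13 did not pass. Virma, the large protein on which the regulatory subunits assemble (mm9 chr4:11413105-11478290), had 20.5, 21.4, 20.8 and 20.6 FPKM in siFto libraries, against 20.4, 20.7, 18.4 and 20.5 FPKM in siCtr libraries. The control values lay close together except for siCtr 3, the library that stood furthest from its group over all genes. Virma had a log2 fold change of 0.06 (interval -0.04 to 0.16, limma adjusted p = 0.38). Zc3h13, the zinc finger protein that keeps the regulatory subunits in the nucleus in mouse cells (mm9 chr14:75684180-75744233), had 13.0, 13.1, 13.0 and 13.0 FPKM in siFto libraries, against 13.8, 12.7, 11.4 and 12.4 FPKM in siCtr libraries. The siFto values all lay inside the range of the controls, of which siCtr 3 was the lowest. Their SD of 0.0476 FPKM was 0.146 times the counting error, while the control SD of 0.979 FPKM was 3.16 times it. Zc3h13 had a log2 fold change of 0.05 (interval -0.06 to 0.17, limma adjusted p = 0.54). In all, siCtr 3 was the lowest control for 5 of the 9 genes. Without it the log2 fold changes were 0.02 for Virma (limma adjusted p = 0.70), 0.01 for Zc3h13 (0.92) and 0.03 for Rbm15 (0.84).

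Of the paralogs Rbm15 and Rbm15b, RNA-binding proteins that bring the complex to its sites, only Rbm15b passed the test; the difference between the 2 was not tested. Rbm15b (mm9 chr9:106786316-106789331) had 16.0, 14.2, 15.3 and 15.2 FPKM in siFto libraries, against 17.3, 16.6, 16.8 and 17.0 FPKM in siCtr libraries. Every siFto value lay below every control. It averaged 15.2 ± 0.737 FPKM in siFto and 16.9 ± 0.281 FPKM in siCtr (SD, n = 4 each), a log2 fold change of -0.15 with SE 0.04 (interval -0.25 to -0.06, limma adjusted p = 0.027). The call was lost without siFto 2, 3 or 4 or without siCtr 1, 2 or 4 (adjusted p 0.0524 to 0.0660) and with quantile normalization (0.0522). Rbm15 (mm9 chr3:107129028-107136207) had 4.55, 4.92, 5.17 and 3.90 FPKM in siFto libraries, against 4.28, 4.48, 3.85 and 4.76 FPKM in siCtr libraries. These overlapped widely, and 1 library in each group, siFto 4 and siCtr 3, lay below 4 FPKM. Rbm15 had a log2 fold change of 0.08, an interval of -0.11 to 0.28 (limma adjusted p = 0.57) and the fewest fragments of the set, 239 to 335 per library. The ratio of Rbm15b to Rbm15 was 3.32 ± 0.475 in siFto and 3.92 ± 0.353 in siCtr (SD, n = 4 each), with overlapping ranges. The deposited locus of Rbm15b is shorter than its GENCODE M21 transcript, which has 1 exon and 6511 bases. Its level, its place among the 9 genes and this ratio therefore rest on a partial gene model.

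Cbll1, also known as Hakai, is an E3 ubiquitin ligase that sits in the regulatory part of the complex, and it had the highest log2 fold change of the 9 genes without passing the test. Its locus is mm9 chr12:32169694-32184481. It had 5.24, 5.93, 5.70 and 5.45 FPKM in siFto libraries, against 4.58, 4.86, 4.74 and 5.24 FPKM in siCtr libraries. The lowest siFto value and the highest control were level, and all the other siFto values lay above all controls. The mean was 5.58 ± 0.298 FPKM in siFto and 4.86 ± 0.284 FPKM in siCtr (SD, n = 4 each), 14.9% higher. The log2 fold change was 0.18 with an interval of 0.05 to 0.31 (limma adjusted p = 0.053). The threshold was passed in 4 of 16 alternatives: median-ratio scaling (adjusted p = 0.039), quantile normalization (0.023), no trend in the prior variance (0.039) and without siCtr 4 (0.041).

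**Figure D3:**
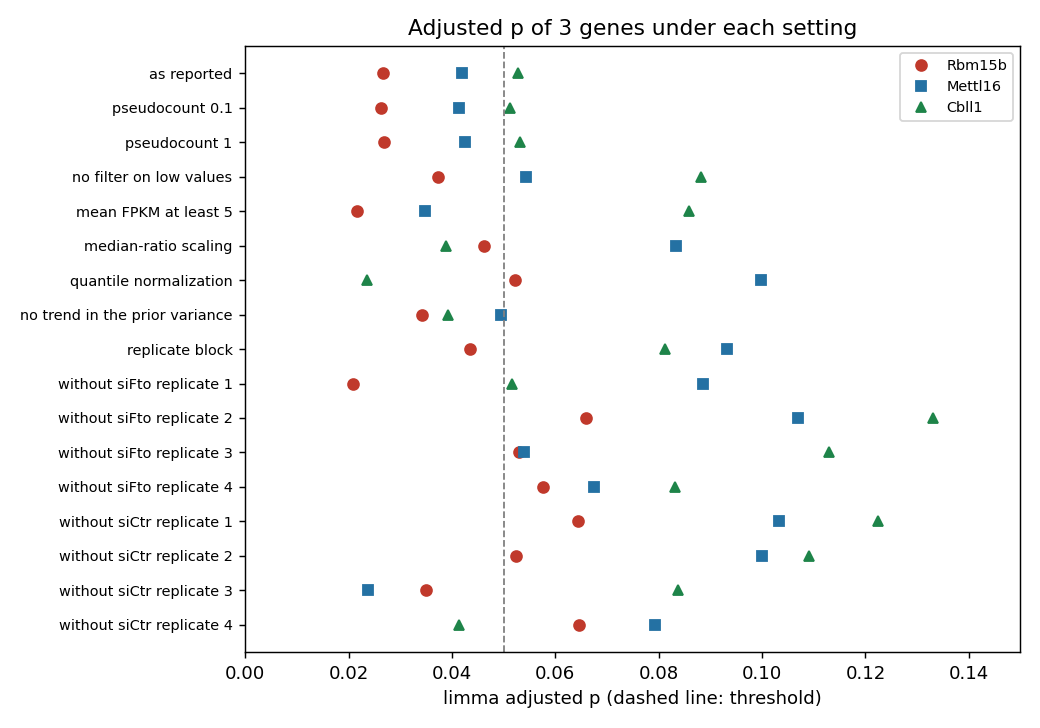
Limma adjusted p (linear axis) of Rbm15b, Mettl16 and Cbll1 under the reported setting and 16 alternatives, 1 row each; the dashed line is the threshold of 0.05. Rbm15b runs from 0.0209 to 0.0660, Mettl16 from 0.0237 to 0.107 and Cbll1 from 0.0235 to 0.133, so each of the 3 lies on both sides of the line.

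Mettl16 writes m6A on the U6 spliceosomal RNA and on hairpins in the 3′ UTR of Mat2a mRNA, which encodes the enzyme that makes S-adenosylmethionine, the methyl donor of all these enzymes. Its known recognition word is TACAGAGAA or TACAGAAAA (written with T for U). The Mat2a 3′ UTR, 1494 bases in GENCODE M21, holds 6 such words, searched on the transcript strand only, while 3.92% of 20026 annotated 3′ UTRs hold at least 1 and none of the 9 genes does. They are shown because Mat2a is the best known mRNA target of Mettl16; capitals mark the word, and coordinates are on GRCm38, minus strand.
Mat2a site 1, chr6:72434234-72434263: tggcgtaggtTACAGAGAAgccttcaagct
Mat2a site 2, chr6:72433450-72433479: ccttgtgataTACAGAGAAgtcacagggca
Mat2a site 3, chr6:72433271-72433300: ctggtgtagcTACAGAGAAaccagcttcct
Mat2a site 4, chr6:72433156-72433185: atggcgtaagTACAGAGAAgccatcacctc
Mat2a site 5, chr6:72433045-72433074: caaggtgtccTACAGAAAAaccttgggtta
Mat2a site 6, chr6:72432937-72432966: gctggtgtggTACAGAGAAgccagcttgtt

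Mettl16 (mm9 chr11:74584365-74632194) was called lower in siFto cells. It had 14.0, 13.6, 14.6 and 14.4 FPKM in siFto libraries, against 16.4, 15.7, 14.9 and 15.5 FPKM in siCtr libraries. The groups did not overlap, with siFto 3 and siCtr 3 closest to each other. The mean was 14.2 ± 0.449 FPKM in siFto and 15.6 ± 0.631 FPKM in siCtr (SD, n = 4 each), a log2 fold change of -0.14 with SE 0.04 (interval -0.23 to -0.05, limma adjusted p = 0.042). The call was lost in 11 of 16 alternatives: leaving out any library except siCtr 3 (adjusted p 0.0539 to 0.107), no filter on low values (0.054), median-ratio scaling (0.083), quantile normalization (0.0999) and the replicate block (0.093). Without siCtr 3 the adjusted p was 0.024. Groups that do not overlap occurred for 15.1% of tested genes in the lower and 9.08% in the higher direction, against Mettl16 and Rbm15b, 2 of 9, and 0 of 9. Mat2a, at a much higher level, had 170, 168, 176 and 173 FPKM in siFto libraries, against 184, 181, 180 and 188 FPKM in siCtr libraries. Its groups did not overlap either, and its log2 fold change of -0.09 did not pass the test (interval -0.16 to -0.03, limma adjusted p = 0.060); it passed with no filter on low values (0.0498) and without siCtr 3 (0.044). FPKM per gene does not separate spliced Mat2a mRNA from the form with a retained intron. The locus of Mat2a overlaps that of 4930414L22Rik, which averaged 1.73 FPKM in siFto and 1.64 FPKM in siCtr libraries.

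The order of the 9 levels was the same in both groups: Wtap, Virma, Rbm15b, Mettl16, Zc3h13, Mettl3, Mettl14, Cbll1 and Rbm15, from 37.2 to 4.64 FPKM in siFto and from 36.8 to 4.35 FPKM in siCtr. In siFto libraries only Rbm15b and Mettl16 had overlapping ranges among neighbours in this order, and in siCtr libraries Zc3h13 with Mettl3 and Cbll1 with Rbm15 did. Wtap stood above 77.7% of the tested genes by mean FPKM and Rbm15 above 17.3%. The catalytic pair lay in the lower part of the order, with Mettl3 above 41.7% and Mettl14 above 29.8% of tested genes.

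Earlier work on these data had picked the words GACCTTA and ACCTTAA because genes with either in the 3′ UTR were low in siFto cells, so shares of fallen genes among their carriers are a description and no separate test. One 3′ UTR per gene was searched on the transcript strand, that of the GENCODE M21 transcript with the longest coding sequence, and a joined GACCTTAA counts as 1 match. Of 1113 tested carriers 27.5% were called lower and 4.13% higher, against 10.7% and 7.60% of 8509 tested genes without either word. The words occur in 10.3% of all searched 3′ UTRs and in 4 of the 9 genes, each once. The joined word occurs once in the coding sequence of Fto itself, which has 1509 bases. Coding sequences of other genes were not searched, so how common such a match is was not counted. The sites are shown because the carriers differ in their values; capitals mark the word, and coordinates are on GRCm38.
Mettl3, chr14:52294913-52294942, minus strand: ctacaggccacACCTTAAgaggactgttta
Mettl14, chr3:123368395-123368424, minus strand: tgcctttctacACCTTAAgtcctatttgat
Mettl16, chr11:74817806-74817835, plus strand: tatgatgcaatGACCTTAtgtgcttagtat
Zc3h13, chr14:75344115-75344144, plus strand: atgcagaaactGACCTTAgtcagaaaggag
Fto coding sequence, chr8:91409653-91409682, plus strand: atgatgaagtgGACCTTAAgagcagagcag

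The carriers had log2 fold changes of -0.14 for Mettl16, -0.08 for Mettl3, -0.08 for Mettl14 and 0.05 for Zc3h13, of which that of Mettl16 passed the test. The 5 genes without either word had -0.15 for Rbm15b, which passed, and 0.01 for Wtap, 0.06 for Virma, 0.08 for Rbm15 and 0.18 for Cbll1, which did not. The site of Mettl16 begins at base 59 of a 3′ UTR of 136 bases, and that of Mettl3 at base 51 of 141. The sites of Mettl14 and Zc3h13 begin at base 973 of 1089 and at base 362 of 662. Differences between carriers were not tested, and neither was the part of these sites in the measured levels.

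The lists of genes around the complex are given as counts beside the 12.3% of all tested genes called lower and the 6.97% called higher; with so few genes a list, nothing particular to a list is read from them. Of 5 other RNA adenosine methyltransferases or their partners, 1 fell and 4 did not pass (median log2 fold change -0.09). The one that fell was Mettl4, a relative of Mettl3 that methylates the U2 spliceosomal RNA, at 5.29 ± 0.297 FPKM in siFto and 6.49 ± 0.563 FPKM in siCtr (SD, n = 4 each; log2 fold change -0.27, limma adjusted p = 0.019); the call was lost without siFto 4 (0.053) or siCtr 2 (0.052). Trmt112, Mettl5 and Pcif1 had -0.13, -0.09 and -0.05 (limma adjusted p = 0.14, 0.40 and 0.45). The other eraser of m6A, Alkbh5, had 24.8, 23.6, 25.2 and 24.3 FPKM in siFto libraries, against 23.4, 23.2, 22.9 and 23.6 FPKM in siCtr libraries (log2 fold change 0.07, limma adjusted p = 0.18). Of 14 readers of m6A, 2 fell and 12 did not pass (median -0.03), a share near the 12.3% called lower among all tested genes. Rbmx, which binds RNA that m6A has opened, fell to 20.5 ± 0.556 FPKM in siFto, against 26.5 ± 1.1 FPKM in siCtr (SD, n = 4 each; log2 fold change -0.36, limma adjusted p = 3.2e-04), and passed in all 16 alternatives. Igf2bp2, which stabilises marked mRNA, had -0.18 (limma adjusted p = 0.0047), while Hnrnpa2b1 and Ythdf1 had -0.10 and 0.09 (0.077 and 0.081).

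Of 8 genes that supply and recycle the methyl donor, 2 fell and 6 did not pass (median log2 fold change -0.10). Ahcyl1 and Ahcyl2, relatives of the enzyme that clears S-adenosylhomocysteine, fell by 0.16 and 0.20 on the log2 scale (limma adjusted p = 0.011 and 0.016). Adk, which removes the adenosine that this cycle releases, had -0.11 (0.057). Of 6 factors known to bind or recruit the complex, limma called 0 higher and 0 lower (median -0.02). Of these, 1, Smad2, was at an unadjusted p under 0.05 (log2 fold change 0.11, limma adjusted p = 0.12). More than 19.3% of all tested genes were at that level, so 1 of 6 is not a raised share. Eif3h, Setd2 and Zfp217 had -0.06, 0.06 and -0.04 (0.42, 0.58 and 0.64). Of 20 other genes named Mettl, a list that also holds Mettl4 and Mettl5 of the methyltransferases above, 16 were tested, 1 rose, 1 (Mettl4) fell and 14 did not pass (median -0.05). The one that rose was Mettl11a, an older name of the protein methyltransferase gene Ntmt1, at 24.2 ± 0.959 FPKM in siFto and 20.6 ± 0.800 FPKM in siCtr (SD, n = 4 each; log2 fold change 0.22, limma adjusted p = 0.0053), while Mettl21a and Mettl17 had -0.15 and -0.11 (0.060 and 0.070).

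**Figure D4:**
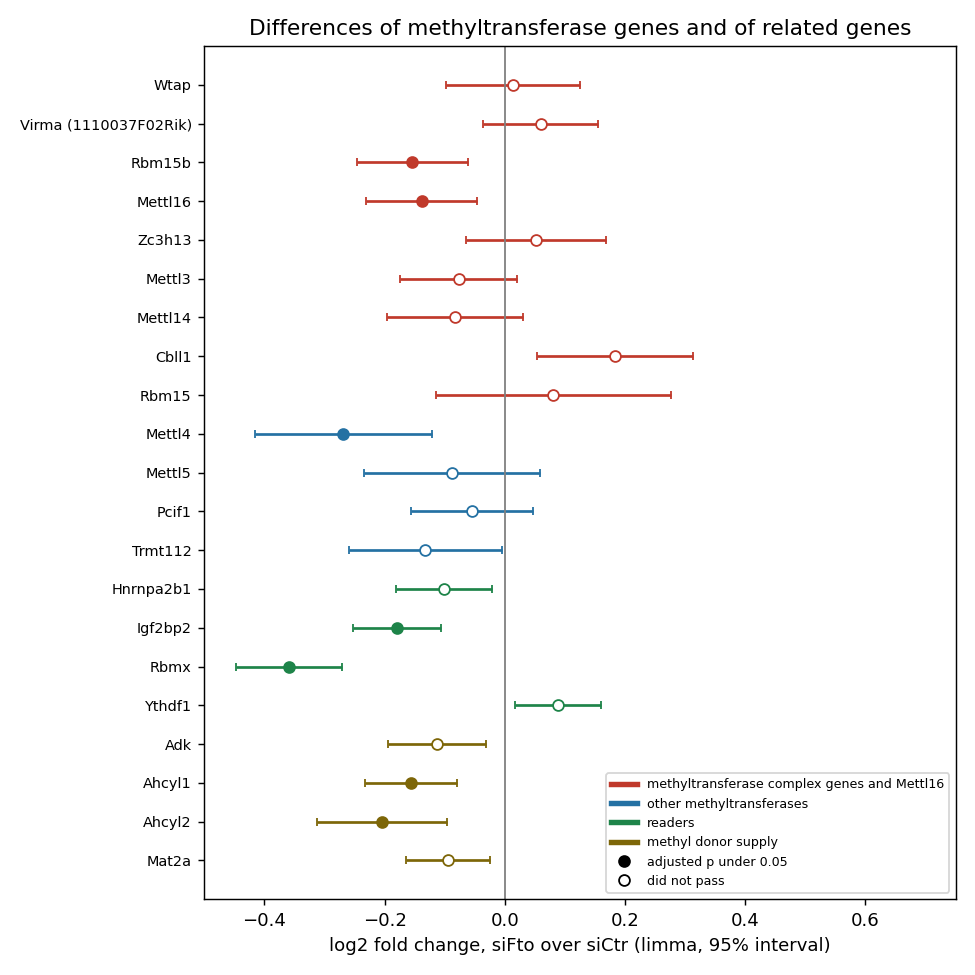
Log2 fold change of siFto over siCtr with the 95% interval of limma for the 9 genes, in order of their level in siCtr, and for named genes of 3 related groups; filled points passed the adjusted threshold of 0.05. The intervals of Wtap, Virma, Zc3h13, Mettl3, Mettl14 and Rbm15 hold 0, while those of Rbm15b and Mettl16 lie below 0 and that of Cbll1 lies above.

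In the authors' deposited table, the fold of siFto over siCtr means was 0.95 for Mettl3, 0.94 for Mettl14, 1.01 for Wtap, 0.90 for Rbm15b, 0.91 for Mettl16 and 1.15 for Cbll1. The p-values in the authors' deposited table, before correction over genes, were 0.0044 for Rbm15b, 0.0088 for Mettl16 and 0.013 for Cbll1. For the other 6 genes the p-values in the authors' deposited table ran from 0.0857 for Mettl3 to 0.808 for Wtap.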

How the data were processed

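Total RNA of 8 samples was sequenced, per the labels. Reads were processed with TopHat2 2.0.11 and Cufflinks 2.2.1 on mm9, per the submitters' processing notes; no source used here gives their settings. The authors deposited FPKM per gene and library with a Cufflinks interval and status, per the file headers; all 72 values of the 9 genes had the status OK. A table compiled by the authors holds linear folds and t-test p-values, per the file headers, whose sidedness is not given. FPKM are not counts, so no count test was run. Fragments were worked out as the number that gives an interval its width. Of low values, 70.4 to 72.5% came out whole within 0.02 and the others did not. Fragment numbers and counting errors are therefore approximate, and the intervals do not cover variation between replicates. Genes averaging at least 1 FPKM entered the test as log2(FPKM + 0.5), a scale that understates changes at low levels. The two-sided test came from limma 3.58.1 under R 4.3.3, whose prior variance followed a trend with level. A run on simulated data used larger changes than those of Rbm15b and Mettl16, so it does not bear on calls of their size. Alternatives changed the pseudocount (0.1, 1), the filter (none, 5 FPKM), the scaling, the trend, a replicate block and each library in turn. Named genes were the 9, Fto, Alkbh5, Mat2a, up to 4 of the lowest p per related list, overlapping genes and nearest profiles. One gene was left out of the related lists and their counts and is not reported here; other listed genes outside the naming rule enter the counts only. Members, lists and words were chosen with earlier results of these data known. Genes of the reference were matched by symbol, 1110037F02Rik through its current name. Loci of genes are mm9, as deposited, counted from 1; sequences are from GENCODE M21 on GRCm38, in 3′ UTRs of at least 50 bases. Python 3.11.15 with numpy 2.4.6, scipy 1.17.1, pandas 2.3.3 and matplotlib 3.10.9 was used.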

Additional observations from a re-analysis of the deposited data

Results flagged for a closer look

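Virma (1110037F02Rik) had 18.4 FPKM in siCtr 3, against 20.4, 20.7 and 20.5 FPKM in the other controls; the gap to the nearest control was 0.839 of the group's range, above Dixon's 95% critical value for 4 samples. It was the single case in 24 groups of 4 values checked, where chance gives about 1 in 20.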

How the results depend on the processing

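The number of the 9 genes called lower, 2 as reported, was 1 with no filter on low values, 1 with median-ratio scaling, 0 with quantile normalization, 1 with the replicate block, and 0 to 2 when 1 library was left out. The number called higher, 0 as reported, was 1 with median-ratio scaling, with quantile normalization and with no trend in the prior variance, and 0 to 1 when 1 library was left out. The count was 794 genes higher and 1401 lower over the whole table as reported (36.2% of calls higher), 1090 and 1198 with median-ratio scaling (47.6%) and 1086 and 1207 with quantile normalization (47.4%). Leaving out 1 library gave 550 to 941 higher and 992 to 1433 lower. With 1 library left out, the log2 fold change changed sign for Wtap (-0.0151 to 0.0499, below 0 without siFto 3 or siCtr 4), Stxbp3a (-0.019 to 0.0437, below 0 in the same fits), Tmem165 (-0.042 to 0.0061, above 0 without siFto 1) and Zfp217 (-0.0749 to 0.0017, above 0 without siFto 4), none of which passed the test in any of the 16 alternatives. The cause of these shifts was not tested. No pairing by replicate number was seen: deviations from the group means correlated at 0.07, -0.04, -0.19 and -0.09 for numbers 1 to 4. For unequal numbers they correlated at -0.18 to 0.18. A weak shared effect could go unseen in so few libraries. The replicate block gave 628 genes higher and 1133 lower. The 9 genes kept their order of mean siCtr FPKM with median-ratio scaling. Counting error limits Rbm15, Mettl14, Cbll1 and Mettl3 most, with 239 to 502 fragments per library.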
